A study of Mus musculus with 3 samples.

Results

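The guanylate-binding proteins are interferon-inducible GTPases of the dynamin superfamily. They assemble on pathogen-containing vacuoles and on cytosolic bacteria, and they promote inflammasome activation. Interferon gamma, acting in part through IRF1, is their best known inducer in macrophages and monocytes, and type I interferon induces several of them as well. Here 6 mouse genes of the family, Gbp2, Gbp3, Gbp4, Gbp5, Gbp6 and Gbp7, were taken by their symbols from the 27998 gene rows of 3 single-cell matrices. Gbp6 was the symbol of 2 rows. One of them (ENSMUSG00000079362) had 0 UMIs in every library, so the values of Gbp6 come from the other (ENSMUSG00000104713).

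The samples were myeloid cells sorted from C57BL/6J mice that carried subcutaneous B16F10 melanoma, a transplantable mouse tumor line. Every sample had the same sort: live cells positive for CD45, negative for CD90, NK1.1, Ly6G, B220 and SigF, and positive for CD11b, CD11c or both. The groups were tumor after Treg depletion, whose library is labelled with the FoxP3 DTR genotype, tumor of wild-type control mice, and blood of wild-type tumor-bearing control mice. Each group had 1 library, so there is no replicate check, and values carry 95% counting intervals in brackets, which cover counting error only. FoxP3 DTR mice express the diphtheria toxin receptor in Foxp3-expressing cells, so that toxin removes regulatory T (Treg) cells. The control mice did not carry the allele, and depletion and genotype cannot be told apart. The design text speaks of control mice and of 1 Treg-depleted mouse, and pooling and the toxin schedule are not given in the sources used here. Foxp3 had 0 UMIs in the Treg-depleted tumor, 1 UMI in the control tumor and 0 UMIs in control blood, and after a sort against CD90 it does not check the depletion.

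A barcode was kept as a cell if it held 1000 or more UMIs (unique molecules) and 400 or more genes, with mitochondrial UMIs at 10% or below. This left 4434 cells of the Treg-depleted tumor, 4443 of the control tumor and 5550 of control blood, with medians of 3820, 6452 and 3550 UMIs. The libraries shared 27 to 36 cell barcodes pairwise. A cell was placed in the class with the largest share of its marker list detected, if at least 3 markers were seen and no other class tied. This left 1528 cells (34.5%) of the Treg-depleted tumor, 616 (13.9%) of the control tumor and 485 (8.74%) of control blood without a class, and 855, 857 and 732 of the gated cells led by about 1 marker or less. The 10 leading genes of each gate held markers of its own list, such as C1qa, C1qb and C1qc for macrophages in both tumors. Vcan, F13a1 and Chil3 were among those of classical monocytes in control blood. The number ran from 2 in type 1 conventional dendritic cells of the control tumor to 7 in neutrophils of control blood. These markers defined the gates, so their lead does not check the names. In the nonclassical monocyte gate of the control tumor 2 neutrophil markers, S100a8 and S100a9, stood among the 10 leading genes beside 6 of its own. Levels are counts scaled to the UMI total of the cells named (CPM, counts per 1e6). The 3′ assay counts transcript ends, so CPM was not divided by gene length when members were ranked.

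In GRCm38 the genes lie in 2 clusters. On the plus strand of chromosome 3, in this order, stand Gbp5 (chr3:142493978-142522344), Gbp7 (chr3:142530342-142550149), Gbp3 (chr3:142560026-142573209) and Gbp2 (chr3:142620602-142638008), with Gbp2b between Gbp3 and Gbp2. On the minus strand of chromosome 5 stand Gbp4 (chr5:105115767-105139586) and Gbp6 (chr5:105270702-105293698), among Gbp8, Gbp9 and Gbp10. Of the 100-base windows in the last 500 transcript bases of Gbp6, 64.6% also occur in Gbp10 or Gm43302, so its counts depend on how reads were assigned and are uncertain. For the other 5 members this share was 0%. For Gbp10 and for the Gbp6 row with 0 UMIs, 100% of the windows occur in other genes. Their low counts therefore do not show a lack of expression. Gbp4 overlaps exons of Gbp8 and Gbp9, with at most 61 of its 7494 exon bases shared with either gene. So few bases cannot fill a 100-base window, so the 0% does not show where they lie.

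RefSeq promoters of GRCm38.p6, each 250 bases before to 50 after a start site on the plus strand, matched 4 of the 6 members. These 4 are shown because no entry was found for Gbp4 and Gbp6. All 6 members were higher in the control tumor than in control blood within the classical monocyte gate, so that difference does not set the 4 apart. Capitals mark letters of 2 motifs associated with interferon responses: GAS, TTCNNNGAA, which reads the same on both strands, and ISRE, GAAANNGAAA, searched on both strands (a minus-strand match reads TTTCNNTTTC here).
Gbp2 promoter (chr3:142620413-142620712): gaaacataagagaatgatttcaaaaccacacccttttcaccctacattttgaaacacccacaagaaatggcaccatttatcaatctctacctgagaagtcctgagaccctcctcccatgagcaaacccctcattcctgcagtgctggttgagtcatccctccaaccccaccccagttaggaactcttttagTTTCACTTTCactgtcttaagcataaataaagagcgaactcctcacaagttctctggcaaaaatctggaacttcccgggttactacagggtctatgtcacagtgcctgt
Gbp3 promoter (chr3:142559794-142560093): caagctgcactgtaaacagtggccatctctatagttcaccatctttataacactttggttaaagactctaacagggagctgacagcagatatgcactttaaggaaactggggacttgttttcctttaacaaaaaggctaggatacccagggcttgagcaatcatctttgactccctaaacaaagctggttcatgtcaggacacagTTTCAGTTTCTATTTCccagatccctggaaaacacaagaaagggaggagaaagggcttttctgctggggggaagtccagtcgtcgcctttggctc
Gbp5 promoter (chr3:142496684-142496983): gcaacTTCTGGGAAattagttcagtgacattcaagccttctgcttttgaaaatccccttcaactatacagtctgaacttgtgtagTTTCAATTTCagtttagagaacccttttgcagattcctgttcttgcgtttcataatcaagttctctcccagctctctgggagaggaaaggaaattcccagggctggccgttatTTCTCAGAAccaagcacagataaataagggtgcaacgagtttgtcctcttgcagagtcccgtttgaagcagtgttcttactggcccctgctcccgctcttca
Gbp7 promoter (chr3:142530086-142530385): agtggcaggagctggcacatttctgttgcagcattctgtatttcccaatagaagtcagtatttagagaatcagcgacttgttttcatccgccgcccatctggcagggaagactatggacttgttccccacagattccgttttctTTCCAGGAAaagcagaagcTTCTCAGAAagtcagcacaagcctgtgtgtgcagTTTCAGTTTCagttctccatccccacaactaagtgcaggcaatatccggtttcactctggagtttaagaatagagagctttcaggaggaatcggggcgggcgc
The Gbp2 window held 1 ISRE match, at -59 to -50 from the start site. The Gbp3 window held 2 ISRE matches that overlap, at -45 to -36 and -39 to -30, and a further Gbp3 start site (chr3:142560106-142560405) held 0. The Gbp5 window held GAS matches at -245 to -237 and -52 to -44 and an ISRE match at -165 to -156. The Gbp7 window held GAS matches at -106 to -98 and -87 to -79 and an ISRE match at -53 to -44. Of 32851 promoters in the same table, 8.30% held GAS, 3.44% held ISRE and 0.454% held both. Gbp4 and Gbp6 are named only. A match describes letters and is not evidence of binding.

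Gbp2 was the most abundant member in both tumors, while Gbp3 led in control blood. Gbp2, which is prenylated and coats pathogen vacuoles and bacteria, had 710.0 CPM (698 to 722) in the Treg-depleted tumor, 473 CPM (466 to 479) in the control tumor and 41.9 CPM (39.1 to 44.8) in control blood. Gbp3 had 100.0 CPM (95.6 to 105), 108 CPM (104 to 111) and 55.1 CPM (51.9 to 58.5) in the same libraries. The level of Gbp3 was therefore close in the 2 tumors, and Gbp2 showed the wider span. Gbp7, a member with antibacterial activity in mouse macrophages, had 132 CPM (127 to 137) in the Treg-depleted tumor, 73.8 CPM (71.1 to 76.5) in the control tumor and 23.8 CPM (21.7 to 26.1) in control blood. Gbp5, which promotes NLRP3 inflammasome assembly, had 95.2 CPM (90.9 to 99.6), 56.0 CPM (53.6 to 58.4) and 6.26 CPM (5.20 to 7.46) in that order of libraries. Both were highest in the Treg-depleted tumor and lowest in blood.

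The chromosome 5 members were the scarcest in control blood. Gbp4, reported in mice to restrain IRF7, had 184 CPM (178 to 190) in the Treg-depleted tumor, 58.7 CPM (56.4 to 61.2) in the control tumor and 4.04 CPM (3.20 to 5.02) in control blood. Gbp6 had 12.9 CPM (11.3 to 14.6), 4.91 CPM (4.24 to 5.66) and 0.252 CPM (0.0819 to 0.589), the last from 5 UMIs. Summed, the 6 members had 1234 CPM in the Treg-depleted tumor, 773 CPM in the control tumor and 131 CPM in control blood. Barcodes with 10 to 100 UMIs, read as free RNA, had sums of 1223, 652.6 and 216.9 CPM in the same order. With free RNA subtracted from the cells, the sum was 1.51-fold between the tumors and 6.42-fold in the control tumor over control blood.

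**Figure D1:**
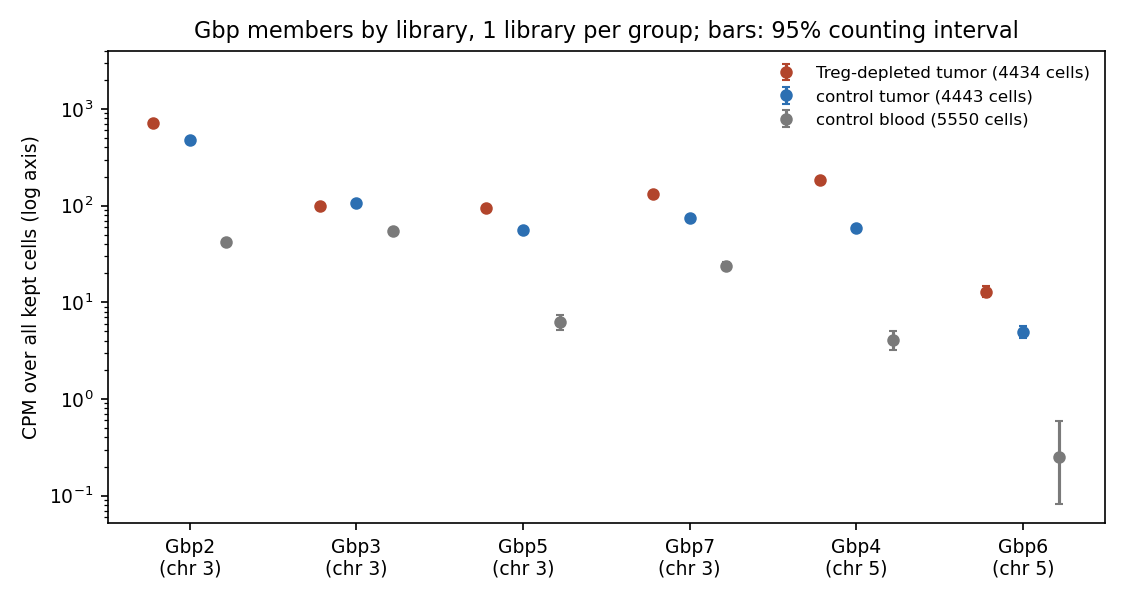
CPM of each member over all kept cells on a log axis, 1 point per library with its 95% counting interval. Gbp2 stands highest in both tumors (710.0 and 473 CPM), and Gbp3 stands highest in control blood (55.1 CPM).

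The order by CPM was Gbp2, Gbp4, Gbp7, Gbp3, Gbp5, Gbp6 in the Treg-depleted tumor, Gbp2, Gbp3, Gbp7, Gbp4, Gbp5, Gbp6 in the control tumor and Gbp3, Gbp2, Gbp7, Gbp5, Gbp4, Gbp6 in control blood. Gbp4 thus stood above Gbp7 and Gbp3 in the Treg-depleted tumor, below both in the control tumor, and below Gbp5 as well in control blood. The intervals of the neighbours Gbp3 and Gbp5 overlapped in the Treg-depleted tumor, as did those of Gbp4 and Gbp5 in the control tumor, and each pair changed places under some alternatives. The blood order was the same in 7 of 7 alternative settings, but not all of these could change it. Leaving out mitochondrial and ribosomal genes alters only the UMI total, which cannot move the order. The alternative UMI minimum in blood, 1010, kept 5539 of the 5550 cells. Of all UMIs of the 6 genes, Gbp4 made up 14.9% in the Treg-depleted tumor, 7.59% in the control tumor and 3.07% in control blood. Gbp3 made up 8.11%, 13.9% and 42.0% in the same libraries, the opposite order.

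Across gates of at least 50 cells the summed level ran over a wide range within each library. In the Treg-depleted tumor it was 3009 CPM (2807 to 3222) in the 122 neutrophil-gated cells, 1625 CPM in classical monocytes, 1035 CPM in cDC2 (type 2 conventional dendritic cells), 865 CPM in macrophages and 791 CPM in Ccr7 DC (migratory dendritic cells that carry Ccr7). In the control tumor it was 1458 CPM in classical monocytes, 1259 CPM in nonclassical monocytes, 738 CPM in cDC2, 565 CPM in macrophages, 492 CPM in Ccr7 DC, 290 CPM in cDC1 (type 1 conventional dendritic cells) and 117 CPM in plasmacytoid DC. In control blood it was 240.1 CPM in B cells, 161 CPM in classical monocytes, 159 CPM in NK cells, 89.2 CPM in neutrophils, 71.5 CPM in nonclassical monocytes and 36.2 CPM in cDC2. Classical monocytes were above macrophages in both tumors, though by less within the clusters that both gates shared, given further below. The highest blood gate lay below each tumor gate other than plasmacytoid DC.

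The neutrophil-gated cells of the Treg-depleted tumor had 1961 CPM (1798 to 2134) of Gbp2, 443.5 CPM (368 to 530) of Gbp7, 246 CPM of Gbp5 and 242 CPM of Gbp4. The classical monocytes of that library had 972 CPM of Gbp2, 152 CPM of Gbp7 and 116 CPM of Gbp5, each below the neutrophil interval. For Gbp4 (187 to 308) the neutrophil interval held the monocyte value of 232 CPM. Gbp3 had 110.0 CPM (74.2 to 157) in the neutrophil gate, against 135 CPM in the monocytes. Gbp6 had 7.33 CPM (0.888 to 26.5, 2 UMIs), against 16.9 CPM. These 2 intervals also held the monocyte values. The sort had selected against Ly6G, and the gate held 15 Ly6g UMIs (55.0 CPM), against 187 UMIs (556 CPM) in the 151 neutrophil-gated cells of control blood. Its cells had a median of 1810 UMIs, against 4522 UMIs in the classical monocytes, and 4 of the 122 were scored as doublets. The control tumor had 29 neutrophil-gated cells, under the minimum of 50, and the 2 tumors were not compared in this gate.

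In 2 gates of lymphoid or plasmacytoid cells Gbp2 was not the leading member. Control tumor plasmacytoid DC had 43.8 CPM (24.5 to 72.2) of Gbp4 and 26.3 CPM (12.0 to 49.8) of Gbp2, intervals that overlap at 15 and 9 UMIs. Blood NK cells, which the sort was to remove, had 75.9 CPM (47.6 to 115) of Gbp7, 38.0 CPM (19.0 to 67.9) of Gbp4 and 13.8 CPM (3.76 to 35.4) of Gbp2. Among blood cDC2, Gbp3 led with 19.8 CPM (12.6 to 29.7) beside 6.89 CPM (2.97 to 13.6) of Gbp2.

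**Figure D2:**
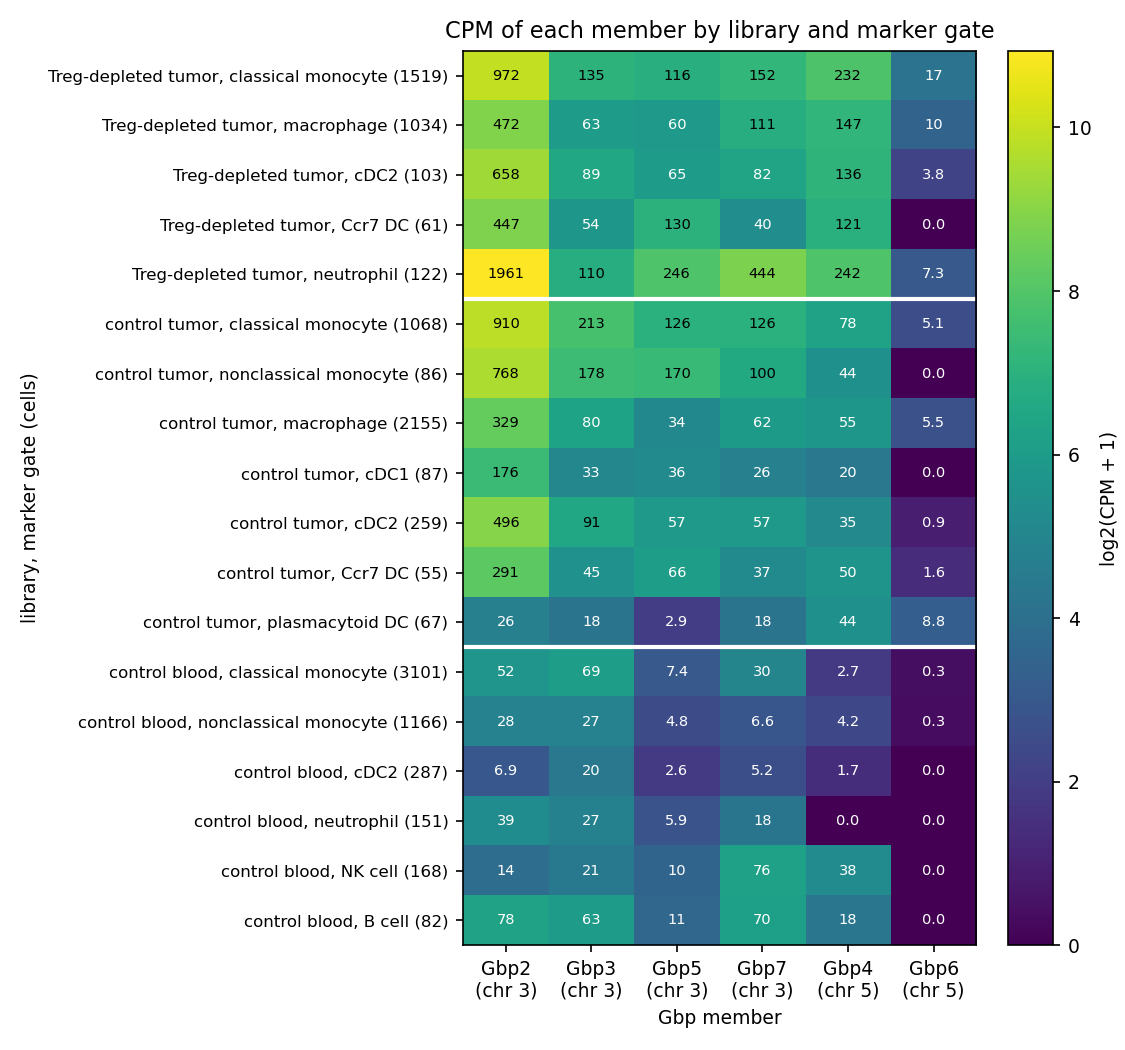
CPM of each member (columns) in each library and marker gate of at least 50 cells (rows, cell number in brackets), coloured by log2(CPM + 1) with the CPM printed in each field. The neutrophil gate of the Treg-depleted tumor has the highest Gbp2 value (1961 CPM), and Gbp6 is the lowest member in most rows.

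**Figure D3:**
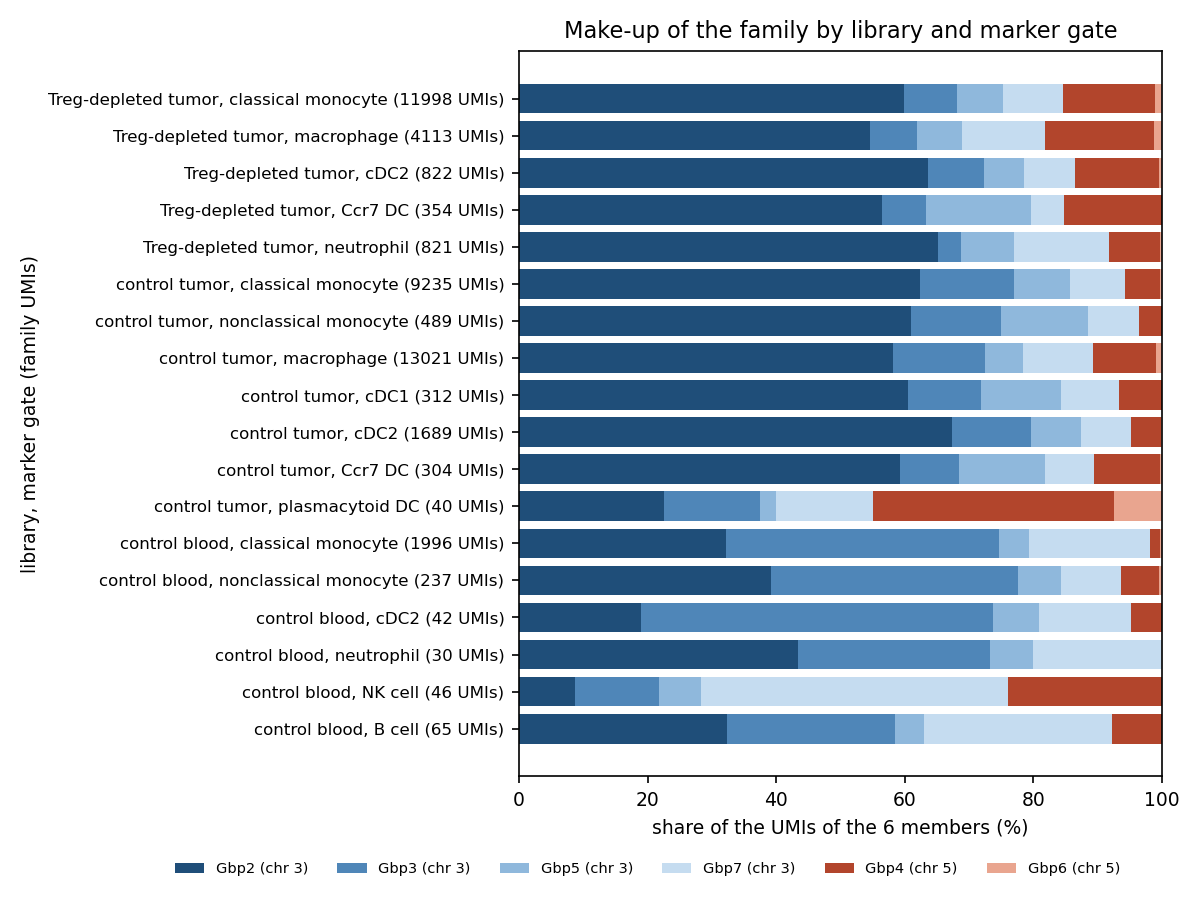
Share of the UMIs of the 6 members taken by each, per library and gate, with the number of UMIs in brackets; blue marks chromosome 3 genes and red chromosome 5 genes. In classical monocytes Gbp3 takes 8.33% in the Treg-depleted tumor, 14.6% in the control tumor and 42.6% in control blood.

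The comparison between tumors asks what differed after Treg depletion. Gbp4 and Gbp6 were the members at least 2-fold higher in the Treg-depleted library. Gbp4 was 3.13-fold higher (2.97 to 3.30) and Gbp6 2.62-fold higher (2.17 to 3.19) over all cells. Gbp7 was 1.79-fold, Gbp5 1.70-fold and Gbp2 1.50-fold the control tumor level, and Gbp3 was 0.930-fold (0.881 to 0.982). These 2 of 6 members stand beside a background of 7.63% of 11383 genes that were at least 2-fold higher. None of the 6 was 2-fold lower, where the background was 8.63%. The sum was 1.60-fold (1.57 to 1.62) that of the control tumor. The make-up of the libraries differed at the same time: classical monocytes were 34.3% and macrophages 23.3% of cells in the Treg-depleted tumor, against 24.0% and 48.5% in the control tumor. The part of that make-up in the ratio over all cells was not tested, and ratios within gates follow.

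Within the classical monocyte gate the difference in the sum was small, and the members went separate ways. The sum was 1625 CPM in the 1519 cells of the Treg-depleted tumor and 1458 CPM in the 1068 cells of the control tumor, a ratio of 1.11 (1.08 to 1.15). Gbp4 had 232 CPM in the Treg-depleted tumor and 78.2 CPM in the control tumor, 2.97-fold higher (2.69 to 3.29). Gbp6 had 16.9 CPM and 5.05 CPM, 3.35-fold higher (2.26 to 5.11). These 2 of 6 compare with a background of 9.76% of 8886 genes, and 0 of 6 were 2-fold lower, with a background of 5.35%. Gbp3 went the other way, with 135 CPM in the Treg-depleted tumor and 213 CPM in the control tumor, 0.636-fold (0.585 to 0.690). Gbp2 (972 and 910.5 CPM) was 1.07-fold (1.03 to 1.11), Gbp7 (152 and 126 CPM) 1.21-fold (1.11 to 1.33) and Gbp5 (116 and 126 CPM) 0.921-fold with an interval that held 1 (0.835 to 1.02). The direction for Gbp2 turned under 2 alternatives, at 0.977-fold as a mean over cells and 0.995-fold with clusters in place of the gate.

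The classical monocyte gate held different clusters in the 2 tumors. The libraries were clustered together without correction for library, so library and cell state cannot be told apart in these clusters. In the Treg-depleted tumor it was mostly clusters 0 (560 cells), 1 (484) and 2 (394), with sums of 948 CPM, 1155 CPM and 3056 CPM. In the control tumor it was mostly clusters 12 (508 cells) and 3 (445), with 1912 CPM and 1247 CPM, and 61 cells of cluster 6 with 747 CPM. Within clusters that also held macrophages, monocytes led macrophages by less than over the whole gates. Macrophage-gated cells had sums of 845 CPM in cluster 0 and 901 CPM in cluster 1 of the Treg-depleted tumor. In the control tumor they had 1028 CPM in cluster 3 and 534 CPM in cluster 6. Gbp4 did not follow the sum in the control tumor: it had 49.9 CPM (41.3 to 59.8) in cluster 12 and 92.8 CPM (81.9 to 105) in cluster 3. In the Treg-depleted tumor Gbp4 had 363 CPM in cluster 2, above 196 CPM in cluster 1 and 170 CPM in cluster 0. Each of these 3 values lay above those of the control tumor clusters. The gated cells had medians of 4 classical monocyte and 1 macrophage markers in the Treg-depleted tumor, and of 5 and 2 in the control tumor.

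In the other gates Gbp4 had the largest ratio among the members with at least 20 UMIs. In macrophages Gbp4 had 147 CPM in the Treg-depleted tumor and 54.9 CPM in the control tumor, 2.68-fold higher (2.44 to 2.95), and was the 1 of 6 members past 2-fold against a background of 8.76% (0 were 2-fold lower, background 10.2%). Gbp6 was 1.88-fold, Gbp7 1.81-fold, Gbp5 1.79-fold and Gbp2 1.43-fold in these cells, and Gbp3 0.785-fold (0.692 to 0.887). These gates too held different clusters, 0 (731 of 1034 cells) in the Treg-depleted tumor and 6 (1806 of 2155 cells) in the control tumor. In cDC2 Gbp4 was 3.89-fold higher (2.89 to 5.26), 1 of the 5 members with at least 20 UMIs, with a background of 5.26% (0 lower, background 8.55%). In Ccr7 DC it was 2.41-fold higher (1.52 to 3.87), again 1 of 5, with a background of 6.64% (0 lower, background 9.55%). Most cDC2 of both tumors lay in the same cluster, number 4 (80 of 103 cells in the Treg-depleted and 227 of 259 in the control tumor). The Ccr7 DC gate did not: 39 of its 61 cells in the Treg-depleted tumor lay in cluster 0, which also held 731 of the 1034 macrophages there. Of its 55 cells in the control tumor, 28 lay in cluster 5 and 26 in cluster 6, which held 1806 of the 2155 macrophages there. Gbp3 had intervals that held 1 in both dendritic gates, at 0.984-fold (0.741 to 1.29) in cDC2 and 1.19-fold (0.657 to 2.12) in Ccr7 DC. The cells without a class had sums of 1032 CPM in the Treg-depleted tumor and 1056 CPM in the control tumor, with 166 CPM and 76.7 CPM of Gbp4.

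In the control tumor nearly the whole family stood above control blood. Over all cells Gbp6 was 19.5-fold (8.20 to 60.7), Gbp4 14.6-fold (11.6 to 18.4), Gbp2 11.3-fold (10.5 to 12.1), Gbp5 8.95-fold (7.46 to 10.8) and Gbp7 3.10-fold (2.81 to 3.42) higher. Gbp3, at 1.95-fold (1.83 to 2.09), was the member short of 2-fold, and it passed it at 2.39-fold under median-of-ratios scaling, 2.57-fold as a mean over cells and 2.68-fold in thinned cells. The count of 5 of 6 stands beside a background of 15.0% of 11659 genes, and 0 of 6 were 2-fold lower, with a background of 22.8%. The median gene was 0.817-fold, a log2 ratio of -0.29, so the sum, 5.89-fold (5.66 to 6.13) or 2.56 on the log2 scale, was 2.85 above the median gene on that scale.

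Within classical monocytes all 6 members were at least 2-fold higher in the control tumor than in control blood, with a background of 11.4% (0 lower, background 27.9%). The sum was 1458 CPM in the control tumor and 161 CPM in the 3101 blood cells, 9.04-fold (8.61 to 9.50), or 3.63 above the median gene on the log2 scale. Gbp4 had 78.2 CPM in the control tumor and 2.67 CPM in control blood, 29.3-fold higher (20.6 to 43.1). Gbp2 had 910.5 CPM and 51.9 CPM, 17.6-fold higher (16.2 to 19.1), and Gbp5 126 CPM and 7.43 CPM, 17.0-fold higher (13.7 to 21.3). Gbp6 was 15.6-fold higher on 32 and 4 UMIs (5.55 to 60.9). Gbp7 (126 and 30.3 CPM) was 4.14-fold and Gbp3 (213 and 68.7 CPM) 3.10-fold higher, the smallest ratios of the 6. In the blood gate the sum ran from 80.0 CPM in cluster 16 to 276 CPM in cluster 10, below each of the tumor clusters above.

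Among members with at least 20 UMIs, the same 2 genes had the smallest ratios in the other gates. In nonclassical monocytes the sum was 1259 CPM in the control tumor and 71.5 CPM in control blood, 17.6-fold (15.1 to 20.7), and 4 of the 4 members with at least 20 UMIs were past 2-fold higher (background 8.62%) and 0 lower (background 27.9%). There Gbp5 was 35.2-fold (20.2 to 65.2), Gbp2 27.4-fold (21.6 to 34.9), Gbp7 15.1-fold (8.76 to 26.8) and Gbp3 6.47-fold (4.67 to 8.95) higher. Gbp4, on 17 and 14 UMIs, was 10.4-fold (4.81 to 22.7). The control tumor gate lay mostly in cluster 12 (61 of 86 cells), which also held 508 of the 1068 classical monocytes there, and the blood gate in cluster 18 (624 of 1166 cells). In cDC2 the sum was 738 CPM in the control tumor and 36.2 CPM in control blood, 20.4-fold (15.0 to 28.4), with 5 of 5 members past 2-fold higher (background 13.4%) and 0 lower (background 19.0%). Gbp2 was 72.1-fold higher there (36.5 to 167), from 1137 UMIs in the control tumor and 8 UMIs in control blood. Blood barcodes read as free RNA had 104.8 CPM of Gbp2, and free RNA was estimated at 6.27% of the UMIs of blood cells. The part of free RNA in the 8 UMIs (6.89 CPM) was not tested, so the size of this ratio is uncertain. Gbp7 was 11.1-fold (4.95 to 30.7) and Gbp3 4.59-fold (2.98 to 7.40) higher. Tumor cDC2 lay mostly in cluster 4 and 259 of the 287 blood cDC2 in cluster 16. The comparison of tumor with blood shares its control tumor library with the comparison between tumors.

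**Figure D4:**
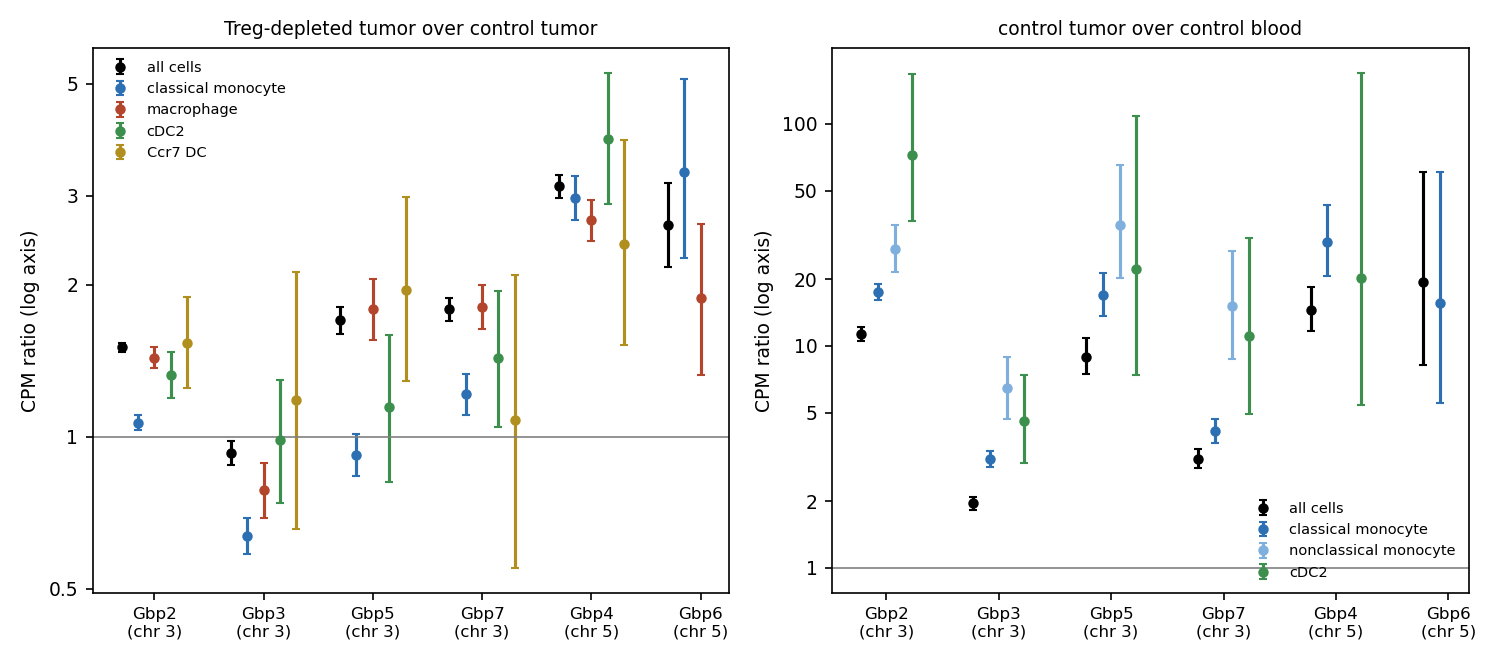
Ratio of CPM for each member on a log axis, with 95% counting intervals, over all cells and within marker gates; members under 20 UMIs in both libraries are left out. In the Treg-depleted over control tumor panel Gbp4 lies above 2-fold in each gate shown (2.41- to 3.89-fold), and in the control tumor over control blood panel Gbp3 has the lowest ratio in each.

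Over all cells, the share of cells with a UMI of Gbp2 or Gbp4 ranked the libraries as the levels did. After each cell was thinned to 1000 UMIs, Gbp2 was counted in 39.2% of cells (37.8 to 40.7) of the Treg-depleted tumor, 29.9% (28.6 to 31.3) of the control tumor and 2.99% (2.56 to 3.47) of control blood. At full depth the shares were 68.2%, 66.1% and 10.1%, close between tumors whose medians were 3820 and 6452 UMIs. Plasmacytoid DC of the control tumor, at a median of 4936 UMIs, had 4.48% at full depth and 1.49% thinned, and blood cDC2, at 3965 UMIs, had 2.44% and 0.697%. Among the gates of the Treg-depleted tumor with at least 50 cells the lowest thinned share was 23.0%, in Ccr7 DC at a median of 7047 UMIs. Its smaller gates had Gbp2 in 13 of 21 thinned nonclassical monocytes, 4 of 36 cDC1 and 0 of 7 plasmacytoid DC, too few to serve as a background. Gbp4 was counted in 14.6% of thinned cells of the Treg-depleted tumor (39.9% at full depth), 6.30% of the control tumor (26.5%) and 0.595% of control blood (1.37%). Plasmacytoid DC of the control tumor had Gbp4 in 2.99% of thinned cells and blood cDC2 in 0 of 287, against 2 of 287 at full depth. By the limit of 3 counts, the 0 allows a share of thinned cells with a UMI of up to 1.05%. In Ccr7 DC the thinned shares did not follow the levels between the tumors. Gbp2 was counted in 14 of 61 thinned cells of the Treg-depleted tumor and 16 of 55 of the control tumor. Gbp4 was counted in 3 of 61 and 5 of 55, and the intervals of both genes overlapped.

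The family's UMIs were spread unevenly over cells. The 10% of cells with the most held 43.0% of the UMIs of the 6 genes in the Treg-depleted tumor, 42.5% in the control tumor and 65.0% in control blood. These shares are at full depth, so cells with more UMIs add to them. Only 26.4% of blood cells had a UMI of the 6 genes. Sparse counts raise such a share by themselves, so the blood value cannot be set against those of the tumors. Up to 73 UMIs of the 6 genes were counted in 1 myeloid-gated cell of the Treg-depleted tumor, a macrophage, 80 in the control tumor and 20 in control blood, and the 1 melanoma-gated barcode of the Treg-depleted tumor had 85. At least 2 members were counted in 21.9% (20.7 to 23.2), 14.1% (13.1 to 15.2) and 1.12% (0.858 to 1.43) of thinned cells in the same order. In the neutrophil gate of the Treg-depleted tumor they were 61 of 122 cells (40.8% to 59.2%), against 29.6% in its classical monocytes and 14.0% in its macrophages.

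**Figure D5:**
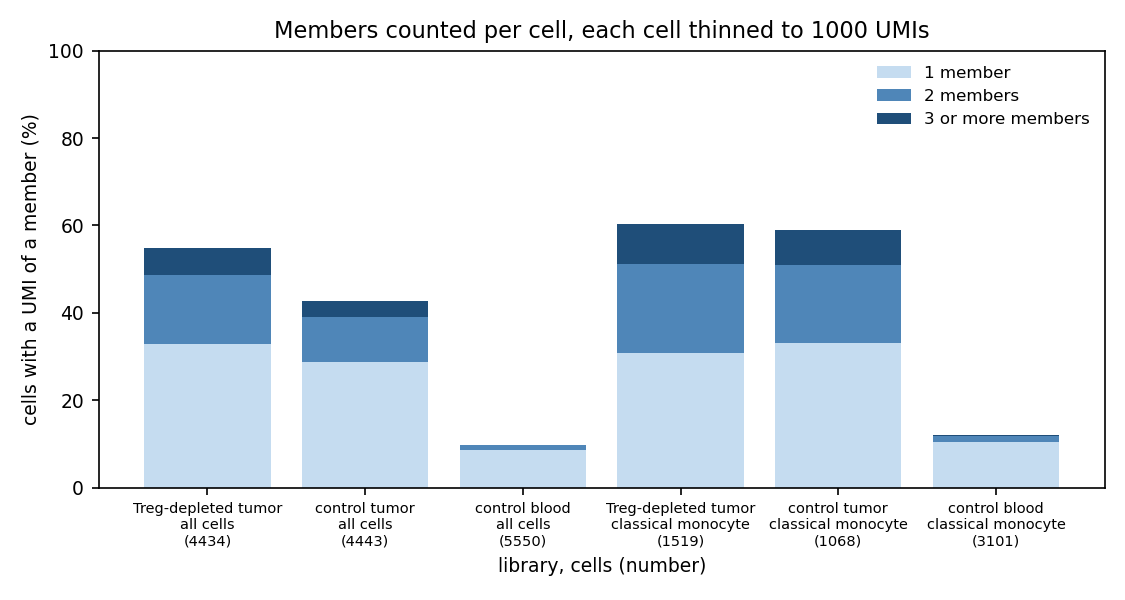
Share of cells with UMIs of 1, 2 or at least 3 members after thinning to 1000 UMIs per cell, for all cells and for the classical monocyte gate of each library. In classical monocytes the bars reach 60.4% in the Treg-depleted tumor, 58.9% in the control tumor and 12.0% in control blood.

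Gbp2 was also counted in relation to the other members, cell by cell within a gate. In classical monocytes of the Treg-depleted tumor, thinned, 69.1% of the 291 cells with a Gbp4 UMI also had Gbp2, against 41.3% of the 1228 cells without one. In those of the control tumor the shares were 72.6% of 73 cells and 41.8% of 995 cells. The difference was smaller in macrophages. There the shares with and without Gbp4 were 40.5% of 121 and 31.1% of 913 cells in the Treg-depleted tumor. In control tumor macrophages they were 46.5% of 127 and 21.3% of 2028 cells. In blood classical monocytes Gbp2 was counted in 12.6% of the 191 cells with Gbp3 and 3.27% of the 2910 cells without. These shares describe cells of 1 library each and were not tested.

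Among the other rows with a Gbp symbol, Gbp9 had 44.9 CPM in the Treg-depleted tumor, 32.5 CPM in the control tumor and 21.1 CPM in control blood. Gbp8 had 39.0, 20.6 and 2.47 CPM and Gbp2b 21.1, 18.5 and 0.202 CPM in the same order. Gbp10 had 5, 8 and 0 UMIs, which do not show a lack of expression, because 100% of its end windows occur in other genes. Gbp1 and Gbp11 were not among the symbols. Over all cells 0 of the 3 rows with at least 20 UMIs were 2-fold apart between the tumors (median log2 ratio 0.47; background 7.63% higher and 8.63% lower). In classical monocytes 2 of 3 were at least 2-fold higher (background 9.76%) and 0 lower (background 5.35%). In classical monocytes of the Treg-depleted tumor over those of the control tumor, Gbp2b was 3.22-fold (2.21 to 4.78), Gbp8 3.10-fold (2.45 to 3.97) and Gbp9 0.939-fold (0.821 to 1.07). Of the control tumor over control blood, 2 of 3 were higher over all cells (background 15.0%) and 3 of 3 in classical monocytes (background 11.4%), where Gbp2b had 36 UMIs in the control tumor and 0 UMIs in control blood, at least 23.5-fold higher against a floor of 3 UMIs in the blood gate. Gbp2b was highest in macrophages of both tumors, at 33.0 CPM in the Treg-depleted and 25.0 CPM in the control tumor.

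The immunity-related GTPases (IRGs), which work with the Gbp proteins at vacuoles in mice, held both genes that were higher after Treg depletion and genes that were not. For this list and those that follow, the share of all genes at least 2-fold higher between the tumors was 7.63% over all cells and 9.76% in classical monocytes, and the share lower 8.63% and 5.35%. For the control tumor over control blood it was 15.0% and 11.4% higher, and 22.8% and 27.9% lower. Over all cells of the Treg-depleted tumor against the control tumor, 5 of 10 were at least 2-fold higher and 0 lower (median log2 ratio 0.96, against -0.07 for all genes tested). In classical monocytes it was 3 of 10 (median 0.63, against 0.01 for all genes). Iigp1 had 293 CPM in classical monocytes of the Treg-depleted tumor and 60.2 CPM in those of the control tumor, 4.87-fold higher (4.37 to 5.45). Gm4951 was 7.25-fold (5.47 to 9.77) and F830016B08Rik 3.67-fold (2.43 to 5.70) higher, both named after their values were seen. The abundant Ifi47 (481 and 599 CPM) was 0.802-fold, Irgm1 (400 and 437 CPM) 0.915-fold and Igtp (145 and 163 CPM) 0.887-fold, with intervals below 1. Over all cells the same 3 genes were higher in the Treg-depleted tumor, Ifi47 1.34-fold (1.30 to 1.38), Irgm1 1.53-fold (1.48 to 1.58) and Igtp 1.21-fold (1.15 to 1.28). Against control blood, 6 of 10 IRG genes of the control tumor were higher and 1 lower over all cells (median log2 ratio 1.24, against -0.29 for all genes). In classical monocytes 8 of 10 were higher and 0 lower (median 1.94, against -0.45), with Iigp1 39.2-fold (24.8 to 65.8), Irgm1 4.08-fold, Igtp 3.59-fold and Ifi47 2.89-fold.

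Of the genes of interferon gamma signalling, 1 of 9 was higher between the tumors over all cells (median log2 ratio 0.58) and 2 of 9 in classical monocytes (median 0.08), with 0 lower, beside backgrounds of 7.63% and 9.76% of genes higher. Socs1, a feedback inhibitor of JAK kinases, was 2.18-fold (1.94 to 2.45) and Jak2 2.08-fold higher in classical monocytes of the Treg-depleted tumor. Irf1 (291 CPM in the Treg-depleted and 318 CPM in the control tumor) was 0.915-fold and Irf8 (354 and 458 CPM) 0.774-fold in that gate. Over all cells Irf1 had 275 CPM in the Treg-depleted tumor and 165 CPM in the control tumor, 1.67-fold higher (1.61 to 1.73), and Irf8 was 0.800-fold. With the control tumor over control blood, 3 of 9 were higher and 1 lower over all cells (median 0.51), and 4 of 9 and 1 in classical monocytes (median 0.97). Irf1 had 318 CPM in control tumor classical monocytes and 54.9 CPM in blood classical monocytes, 5.78-fold higher (5.30 to 6.31).

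Among ligands and receptors, Ifngr1, a chain of the interferon gamma receptor, was lower in the Treg-depleted than in the control tumor and lower in the control tumor than in control blood. In classical monocytes it had 86.5 CPM in the Treg-depleted tumor, 287 CPM in the control tumor and 718 CPM in control blood, at ratios of 0.302 (0.275 to 0.330) and 0.400 (0.380 to 0.420). Of this list, 1 of 5 was higher and 1 of 5 lower between the tumors over all cells (median log2 ratio -0.31), and 0 of 5 and 1 of 5 in classical monocytes (median -0.34). For the control tumor over control blood it was 1 of 6 and 2 of 6 over all cells (median 0.00) and 0 of 4 and 1 of 4 in classical monocytes (median 0.19). Ifng itself had 0 UMIs in the Treg-depleted tumor, 10 UMIs in the control tumor and 25 UMIs in control blood, after a sort against CD90 and NK1.1. The 168 NK-gated cells of control blood nevertheless held 294 UMIs of Klrb1c, the NK1.1 gene (1015 CPM).

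Type I interferon-stimulated genes were at least 2-fold higher in 2 of 14 cases between the tumors over all cells (median log2 ratio 0.46) and 1 of 14 in classical monocytes (median 0.25). The shares of all genes were 7.63% and 9.76%, so the second count is near its background. Isg15, a ubiquitin-like modifier, had 1648 CPM in classical monocytes of the Treg-depleted tumor and 1357 CPM in those of the control tumor, 1.22-fold (1.18 to 1.25). Relative to control blood, 3 of 14 in the control tumor were higher and 1 lower both over all cells (median -0.14) and in classical monocytes (median -0.04). In classical monocytes Isg15 was 4.10-fold and Rsad2, an antiviral radical SAM enzyme, 4.54-fold higher, while Ifit3 was 0.489-fold. The type I factors held 0 of 6 past 2-fold between the tumors over all cells (median 0.17) and in classical monocytes (median -0.26), where Irf7 was 0.575-fold (0.543 to 0.609). In the control tumor over control blood, 0 of 6 were higher and 2 lower in both (medians -0.62 and -0.58).

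Of 9 inflammasome and pyroptosis genes, 0 were past 2-fold between the tumors over all cells (median log2 ratio -0.31), where 7.63% of all genes were higher and 8.63% lower. In classical monocytes Pycard, the adaptor ASC, was 2.10-fold higher (1.98 to 2.22) and Il1b 0.350-fold (0.344 to 0.356) in the Treg-depleted tumor (median -0.46). Between the control tumor and control blood, 2 were higher and 1 lower over all cells (median -0.49; background 15.0% and 22.8%), and 3 and 1 in classical monocytes (median 0.02; background 11.4% and 27.9%). There Il1b was 113-fold, Nlrp3 7.51-fold and Casp4, the mouse caspase-11 gene, 2.32-fold higher. Of 11 genes of ubiquitin-like conjugation at vacuoles, 1 was higher between the tumors over all cells (median 0.07) and in classical monocytes (median 0.09), Trim21 both times. Of the control tumor over control blood 1 was higher and 2 lower over all cells (median -0.30), and 1 and 1 in classical monocytes (median -0.22), with Sqstm1, an autophagy receptor, 9.03-fold higher.

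The genes whose levels ran most like the summed family were ranked by Pearson r of log2(CPM + 5) across 18 library and gate units, over 5153 genes. Tnfaip3, the NF-kB inhibitor A20, led with r = 0.938, followed by Smox (0.930) and Cd274, which encodes PD-L1 (0.923). Ptgs2, Maff, Gna13, Batf2, Slc15a3, Homer1 and Ralgds completed the 10 highest, down to 0.913. The order depended on the settings: in the 12 units of at least 100 cells Tnfaip3 ranked 8, Smox 17 and Cd274 26, Batf2 ranked 45 with a pseudocount of 1 and Homer1 56 with a pseudocount of 20. Cd274 had 446 CPM in the Treg-depleted tumor, 197 CPM in the control tumor and 8.02 CPM in control blood. Within the 5 units of the Treg-depleted tumor its r was 0.903 and within the 7 of the control tumor 0.898. Gna13 had 0.416 within the Treg-depleted tumor, the lowest of the 10 there, and 0.822 within the control tumor. Among the members, r was 0.975 for Gbp2, which makes up most of the sum, 0.958 for Gbp5, 0.892 for Gbp7, 0.869 for Gbp4 and 0.852 for Gbp3. Within the control tumor it was 0.983 for Gbp2, 0.976 for Gbp3, 0.969 for Gbp7, 0.944 for Gbp5 and 0.456 for Gbp4. Within the Treg-depleted tumor it was 0.997, 0.779, 0.934, 0.770 and 0.913 in that order of genes. The units share 3 libraries and their depth, so these values are a description.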

How the data were processed

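Each of the 3 libraries came from sorted mouse myeloid cells and a 3′ single-cell kit. Cell Ranger 1.2 and the build mm10 are named in the submitters' processing notes. The deposited matrices hold whole-number UMI counts, unnormalized, for 27998 genes and 737280 barcodes, so cells were called anew (1000 or more UMIs, 400 or more genes, mitochondrial share up to 10%). The annotation behind the counts is not given in the sources used here. Cells kept held 19392626 UMIs (Treg-depleted tumor), 38680457 (control tumor) and 19823533 (control blood), and 83.3%, 91.0% and 86.4% of all UMIs.

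Each cell was gated on 14 marker lists (108 of 112 symbols found). Counts were summed per library and gate and scaled to CPM. Intervals at 95% are exact Poisson for CPM, Clopper-Pearson for shares and conditional binomial for ratios, and the limit of a count of 0 is 3 counts. The ratio code was tested on simulated data. Since each group is 1 library, the groups were not tested against each other. Calls needed a 2-fold ratio and 20 UMIs in either library, and percentages of genes called use the same rule. Doublets were scored (157, 158 and 246 cells) but kept. Cells of the 3 libraries were also clustered together with the Leiden algorithm (scanpy 1.11.5) for description. Their counts were scaled to equal totals, with no correction for library. Free RNA was read from barcodes with 10 to 100 UMIs.

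All 6 members and other Gbp rows are named, from 8 pathway lists (69 of 73 genes found) up to 4 genes of the highest CPM in either library, and the 10 genes most like the summed family. List genes named for passing 2-fold were chosen after their values were seen, and 1 gene of the interferon gamma list is counted but not reported here. The members and lists were chosen with earlier results of these data known. Positions come from GENCODE M21 (GRCm38) and promoters from RefSeq. Alternatives changed the barcode filters, doublets, scaling, weighting, depth, free RNA and gates. Python 3.11.15 and scipy 1.17.1 were used.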

Additional observations from a re-analysis of the deposited data

Results flagged for a closer look

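Barcodes with 10 to 100 UMIs, which entered no group of cells and were used for the estimate of free RNA, carried the family in every library. The 6 members had 1223 CPM in such barcodes of the Treg-depleted tumor (64292 barcodes), 652.6 CPM in those of the control tumor (69500) and 216.9 CPM in those of control blood (62225). In the cells they had 1234, 773 and 131 CPM. In blood the low-UMI barcodes therefore stood above the cells, led by Gbp2 at 104.8 CPM, against 41.9 CPM in cells. In the Treg-depleted tumor Gbp4 (240 CPM, against 184 CPM in cells) and Gbp3 (119 CPM, against 100.0 CPM) stood above the cells, and the other members did not. In the control tumor Gbp4 alone did, at 62.7 CPM against 58.7 CPM in cells. From marker genes outside their class, free RNA was estimated at 7.73% of the UMIs of cells in the Treg-depleted tumor, 2.68% in the control tumor and 6.27% in control blood.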

How the results depend on the processing

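Values are log2 ratios of the summed family. Treg-depleted over control tumor, all cells, was 0.67, against 0.75 scaled by the median of gene ratios, 0.70 without mitochondrial and ribosomal genes, 0.46 as a mean over cells, 0.44 thinned to 1000 UMIs and 0.59 with free RNA subtracted. In the classical monocyte gate it was 0.16, against 0.20 without mitochondrial and ribosomal genes, 0.047 as a mean over cells, 0.056 thinned, 0.087 with free RNA subtracted and 0.22 under a stricter gate. Control tumor over control blood, all cells, was 2.56, against 2.85 scaled by the median, 2.48 without mitochondrial and ribosomal genes, 2.90 as a mean over cells, 2.98 thinned and 2.68 with free RNA subtracted. In classical monocytes it was 3.18, against 3.63, 3.07, 3.33, 3.42 and 3.29 under the same settings. The cause of these shifts was not tested. The other settings moved these 4 ratios by less than their counting intervals, and no setting turned the direction of any of the 4.

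Gbp2 between the tumors in classical monocytes turned, to -0.034 as a mean over cells and -0.0078 with clusters in place of the gate. Of 216 member values under alternatives, 168 stayed within the counting interval and 46 moved. Gbp4 between the tumors ran from 2.48- to 3.29-fold over all cells and from 2.70- to 3.07-fold in classical monocytes, and Gbp5 in that gate from 0.778- to 1.14-fold. List counts held in 125 of 128 cases. The order of members was as reported in 4 of 7 settings for the Treg-depleted tumor and 5 of 7 for the control tumor. These counts include the setting without mitochondrial and ribosomal genes, which could not alter the order. No paired analysis was possible because each group had 1 library. Differences between animals cannot be told from differences between groups, and members at a few CPM cannot be seen in most single cells at these depths.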
